A study of Mus musculus with 93 samples.

Results

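The genes that code for the COPII and COPI coats and for the cargo receptors, SNAREs and tethers that work with them were followed in the liver of 7 mouse strains on 2 diets. The members are 43 genes, listed by name, with earlier results of these data known, of 53465 genes in the count table. All 43 were found by their Ensembl identifiers, and all 43 passed the filter on low counts, which kept 19110 genes. Liver RNA was sequenced from 93 male mice of 7 inbred strains, of which C57BL/6J, A/J, DBA/2J and 129S1/SvImJ are laboratory strains and WSB/EiJ, PWK/PhJ and CAST/EiJ are wild-derived. Mice lived at thermoneutrality, 30°C, from the age of 6 wk, and the diet began at 7 wk and lasted 17 wk, so that livers were collected at 24 wk, after 4 h without food. The western diet (WD) gave 40% of its energy as fat and 43% as carbohydrate, the control diet (CD) 10% and 73%, and both gave 17% as protein. The groups held, on CD and WD, 8 and 8 C57BL/6J mice, 6 and 7 DBA/2J, 5 and 6 A/J, 7 and 6 129S1/SvImJ, 6 and 6 WSB/EiJ, 7 and 8 CAST/EiJ, and 6 and 7 PWK/PhJ. C57BL/6J is the strain of the reference genome to which the reads of all 7 strains were mapped, no group carries a transgene or a deletion by its labels, and each strain's mice came from 2 or 3 cohorts.

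Secreted and membrane proteins leave the endoplasmic reticulum (ER) in vesicles that the COPII coat shapes, and COPI vesicles carry escaped ER proteins, receptors and lipids back from the Golgi. The GTPase SAR1 starts the COPII coat, SEC23 and SEC24 form its inner layer and choose the cargo, and SEC13 and SEC31 form its outer cage. The COPI coat is the multisubunit coatomer, recruited by ARF GTPases, and hepatocytes, which secrete albumin, clotting factors and lipoproteins, depend on both routes.

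Each mouse had between 40020424 and 49894856 reads on genes (median 46618609), and the RNA integrity number was between 7 and 9.7. The median share of reads that did not map was 10.2% on CD and 13.02% on WD in CAST/EiJ, the highest of the strains, 3.71% and 8.26% in PWK/PhJ, 4.14% and 8.18% in WSB/EiJ, and 2.36% and 2.73% in C57BL/6J. In DBA/2J it was 6.54% and 5.04%, 129S1/SvImJ had 4.69% and 5.67%, and A/J had 2.34% and 2.13%. The ranges of CD and WD did not overlap in PWK/PhJ (2.22% to 4.23% and 5.48% to 8.73%) and overlapped in the other 6 strains, and the part of this share in the members' changes was not tested. The 7 CAST/EiJ mice on CD differed among themselves more than the mice of any other group, with a median chi-square per degree of freedom of 102.31 between pairs of mice, against 30.51 to 94.33 in the other 13 groups. The 7 hepatocyte markers were measured in every mouse, with summed levels between 72150 and 221200 CPM (reads on a gene per 1000000 reads), and the sums on WD lay below all of those on CD in C57BL/6J, A/J, WSB/EiJ, CAST/EiJ and PWK/PhJ. Alb made up most of these sums, and the markers did not all move alike. In CAST/EiJ mean Alb was 92930 CPM on CD and 55360 on WD, and mean Cyp2e1 was 7569 and 7786. In C57BL/6J mean Cyp2e1 was 4535 CPM on CD and 6927 on WD. In bulk liver, fewer cells of a type and less RNA per cell cannot be told apart. Levels are given as CPM after TMM scaling, changes as log2 fold changes of WD over CD with their standard error (SE), and p-values are from limma-voom, adjusted over all 19110 genes within a comparison. A gene is said to rise or fall where the adjusted p was below 0.05.

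The members spanned a wide range of levels. Per kilobase of exon, as the mean of the 14 groups, Sar1b, one of the paired SAR1 GTPases, was the most abundant at 156 CPM per kb, followed by the ARF GTPase Arf1 at 112.7 and the cargo receptor Surf4 at 92.4. Mcfd2, the partner of LMAN1 in the export of coagulation factors, stood at 71.3, Kdelr1 at 64.8 and Kdelr2 at 59.9, both receptors that return ER-resident proteins. The coatomer subunits lay lower and apart from each other, with Copz1 at 39.5, Copb1 at 25.8, Cope at 24.1, Copa at 24.1, Copb2 at 23.9, Arcn1 at 13.1 and Copg1 at 7.23 CPM per kb. Paralogs of the coats differed in level. Sec23a stood at 24.3 and Sec23b at 9.06, Copz1 at 39.5 and Copz2 at 6.46, Copg1 at 7.23 and Copg2 at 4.68, and Sar1b at 156 against 21.9 for Sar1a. Among the cargo-binding SEC24 proteins, Sec24d and Sec24c led at 20.0 and 18.8, with Sec24a at 12.5 and Sec24b at 4.39. Kdelr3 was the least abundant member at 0.319 CPM per kb, so that its changes rest on few reads per mouse.

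The comparison of WD with CD within each strain asks which of these genes the diet moved in which genetic background. In CAST/EiJ 21 members fell and 1 rose, where 9.73% and 9.77% of all genes tested did so. The study had already reported, from these data, terms of Golgi organization and ER to Golgi transport among genes lower in CAST/EiJ alone. The members cover that pathway, so the shares in CAST/EiJ given here are not independent of that report. In C57BL/6J 4 rose and 5 fell (14.3% and 11.9% of all genes), in 129S1/SvImJ 3 rose and 7 fell (14.5% and 13.6%), and in PWK/PhJ 4 rose and 5 fell (15.1% and 14.5%). In DBA/2J 8 rose, against 10.2% of all genes, and none fell by limma, against 7.77%, with 2 lower at an unadjusted p below 0.05 and none by edgeR or DESeq2. In WSB/EiJ 6 fell (3.97% of all genes) and none rose by limma (4.97%), with 1 higher at an unadjusted p below 0.05, 1 by edgeR and 1 by DESeq2. In A/J 2 fell (4.64%) and none rose (4.39%), again with 1 higher at an unadjusted p below 0.05, 1 by edgeR and 1 by DESeq2. The median change of the 43 members was -0.25 in CAST/EiJ, where that of all genes was 0.017, and it was between -0.11 and 0.081 in the other 6 strains.

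**Figure D1:**
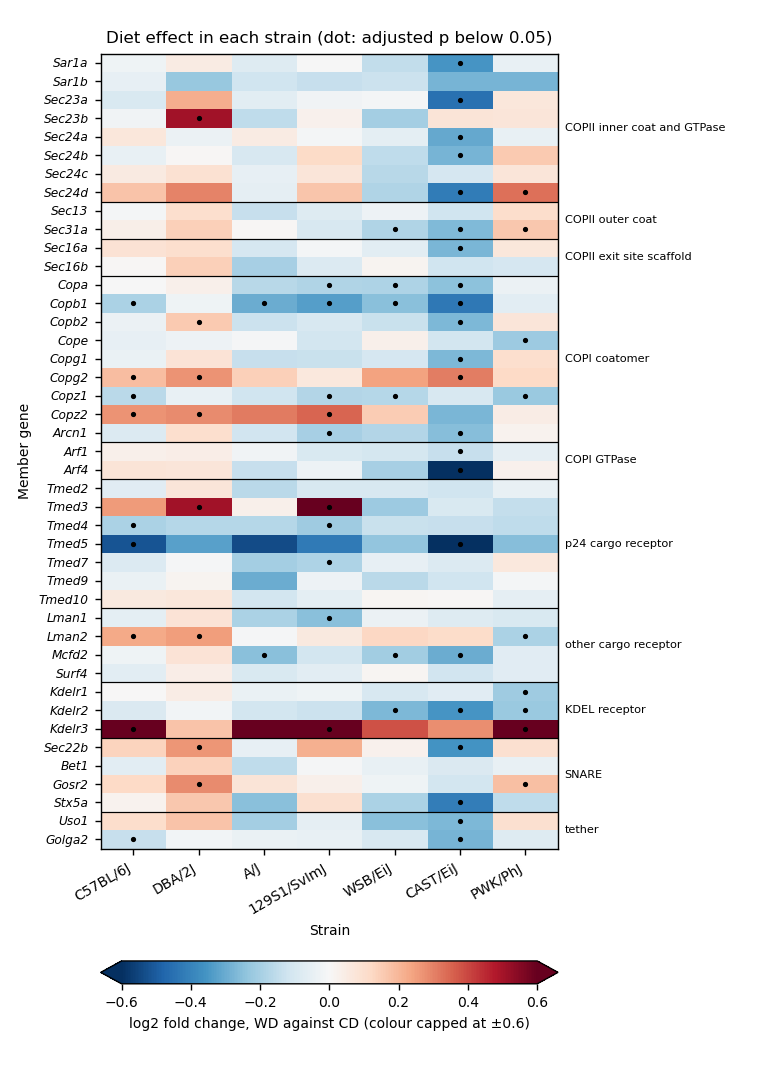
Log2 fold change of WD over CD for each of the 43 members (rows, by role) in each strain (columns), with red for higher and blue for lower on WD, the colours capped as the scale shows, and a dot where the limma-voom adjusted p was below 0.05. The CAST/EiJ column is mostly blue, with 21 members lower and Copg2 higher, and DBA/2J has 8 members higher and none lower.

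**Figure D2:**
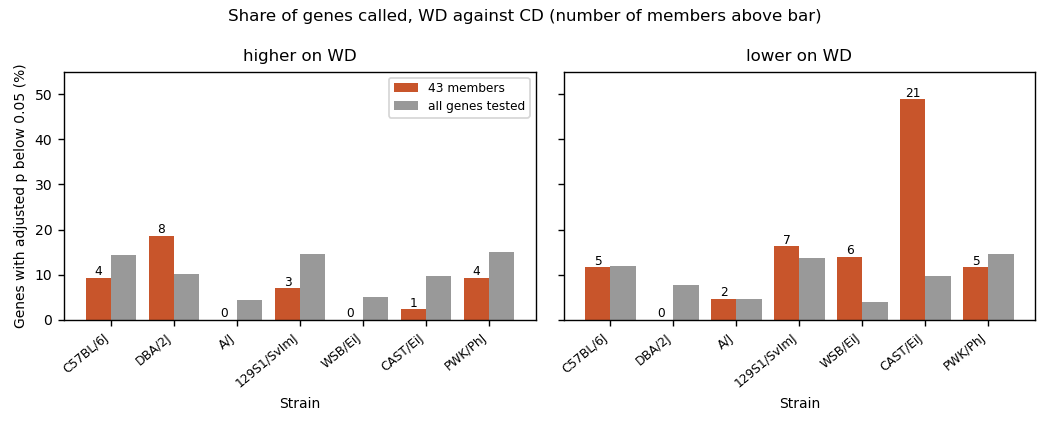
Share of genes higher or lower on WD at a limma-voom adjusted p below 0.05 in each strain, for the 43 members (bars, numbers of genes above them) and for all 19110 genes tested. In CAST/EiJ 21 of 43 members were lower, against 9.73% of all genes, and the members were listed with earlier results of these data known.

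In CAST/EiJ the genes that fell came from nearly every role in the pathway. They were 5 of the 8 SAR1, SEC23 and SEC24 genes, 1 of 2 outer coat genes, 1 of 2 SEC16 scaffolds, 5 of 9 coatomer genes, both ARF genes, 1 of 7 p24 cargo receptors, 1 of the 4 other cargo receptors, 1 of 3 KDEL receptors, 2 of 4 SNAREs and both tethers. For 10 members all 8 WD mice lay below all 7 CD mice, against 1.28% of all genes tested. These were Sar1a, Sec24d, Sec31a, Copa, Copb1, Copb2, Copg1, Arf1, Arf4 and Kdelr2.

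Among the inner coat genes Sec23a, which activates the SAR1 GTPase and binds SEC24, had 130, 196 and 240.1 CPM (lowest, median and highest) on CD and 112, 136 and 150.1 on WD in CAST/EiJ. Its log2 fold change was -0.45 (SE 0.093, adjusted p = 0.00017), and the groups overlapped, with 3 of 8 WD mice below every CD mouse. The cargo-binding Sec24d had 145, 162 and 182 CPM on CD and 107, 119 and 139 on WD. It fell by 0.42 on the log2 scale (SE 0.10, adjusted p = 0.002), and the groups did not overlap. Sec24a went from 129, 182 and 219.5 CPM to 109, 141 and 175, a log2 fold change of -0.31 (SE 0.10, adjusted p = 0.02) with overlapping groups, and its call was lost without any 1 of CD replicates 3, 5 and 7 and WD replicates 3 and 5 (adjusted p of 0.051 to 0.09). Sar1a had 103, 118 and 126 CPM on CD and 82.5, 92.0 and 97.7 on WD, with a log2 fold change of -0.36 (SE 0.049, adjusted p = 4.4e-08) and no overlap. Sec24b, the least abundant SEC24 gene, also fell, at -0.28 (adjusted p = 0.0042). Sar1b and Sec24c had log2 fold changes of -0.28 (adjusted p = 0.052) and -0.10 (0.24), which did not pass. For Sec23b the estimate was 0.077 (adjusted p = 0.81), opposite in sign to that of its paralog Sec23a. In the outer coat Sec31a fell, at -0.26 (adjusted p = 0.00024), while Sec13 had -0.12 (0.18). Of the scaffolds that mark ER exit sites, Sec16a fell, at -0.27 (adjusted p = 0.0025), and Sec16b had -0.12 (0.36).

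In the coatomer Copb1, the β subunit, had 169, 197 and 227 CPM on CD and 140.5, 148 and 154 on WD in CAST/EiJ. It fell by 0.43 on the log2 scale (SE 0.056, adjusted p = 9.4e-09), with no overlap between the diets. The α, β′, γ1 and δ subunits fell by less. Their log2 fold changes were -0.25 for Copa (adjusted p = 0.00018), -0.27 for Copb2 (1.3e-05), -0.27 for Copg1 (0.00093) and -0.26 for Arcn1 (0.00071). The paralog Copg2 moved the other way, from 15.8, 22.0 and 27.9 CPM on CD to 24.4, 27.0 and 28.9 on WD, a log2 fold change of 0.31 (SE 0.076, adjusted p = 0.0018), with 1 of 8 WD mice above all CD mice. Within cohorts 1, 3 and 4 its change in mean log2 CPM was 0.0081, 0.14 and 0.51, the first with 1 CD mouse. Cope, Copz1 and Copz2 did not pass, at -0.11 (adjusted p = 0.23), -0.098 (0.18) and -0.27 (0.084).

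Arf4, an ARF GTPase of the early secretory route, had the smallest p-value of the members. CAST/EiJ mice had 185, 232 and 290.4 CPM on CD and 137, 149 and 166 on WD, so that every WD mouse lay below every CD mouse, and the log2 fold change was -0.62 (SE 0.071, adjusted p = 2.5e-10). Arf1 fell less, at -0.14 (adjusted p = 0.0093), also with no overlap. Exons of Arf4 share 527 bp with Pde12 on the opposite strand, and whether the counting separated the strands is not given in the sources used here. Pde12 itself had a log2 fold change of 0.087 in CAST/EiJ (adjusted p = 0.6).

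Among the members in CAST/EiJ the largest change was that of Tmed5, a p24 protein that takes part in the sorting of GPI-anchored cargo. On CD the 7 CAST/EiJ mice had 142.8, 108.1, 296, 111.1, 351.6, 297.7 and 331.7 CPM (replicates 1 to 7), and on WD the 8 mice had 84.6, 91.9 and 126 (lowest, median and highest). The log2 fold change was -1.14 (SE 0.17, adjusted p = 3.5e-07), and 7 of the 8 WD mice lay below every CD mouse. The CD group was itself uneven, with replicates 1, 2 and 4, from cohorts 1, 3 and 4, below the others. For Sec23a the same 7 mice had 164.1, 129.8, 220.3, 130.5, 225.1, 196.4 and 240.1 CPM, for Arf4 217.3, 186.5, 232.2, 185, 290.4, 245 and 261.8, and for Copg2 25.4, 27.9, 22.0, 27.3, 15.8, 17.7 and 18.2. Replicates 1, 2 and 4 were thus the lowest for Tmed5, Sec23a and Arf4 and the highest for Copg2. These mice were compared with no test, since a measured level sets them apart. Within cohorts 1, 3 and 4 the change of Tmed5 in mean log2 CPM was -0.49, -1.05 and -1.38. Leaving out any 1 of the 15 CAST/EiJ mice left between 21 and 24 members called. Leaving out 1 mouse at a time cannot show how the calls depend on CD replicates 1, 2 and 4 together. Exons of Tmed5 share 395 bp with Mtf2 on the opposite strand, for which the log2 fold change was 0.021 (adjusted p = 0.89).

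**Figure D3:**
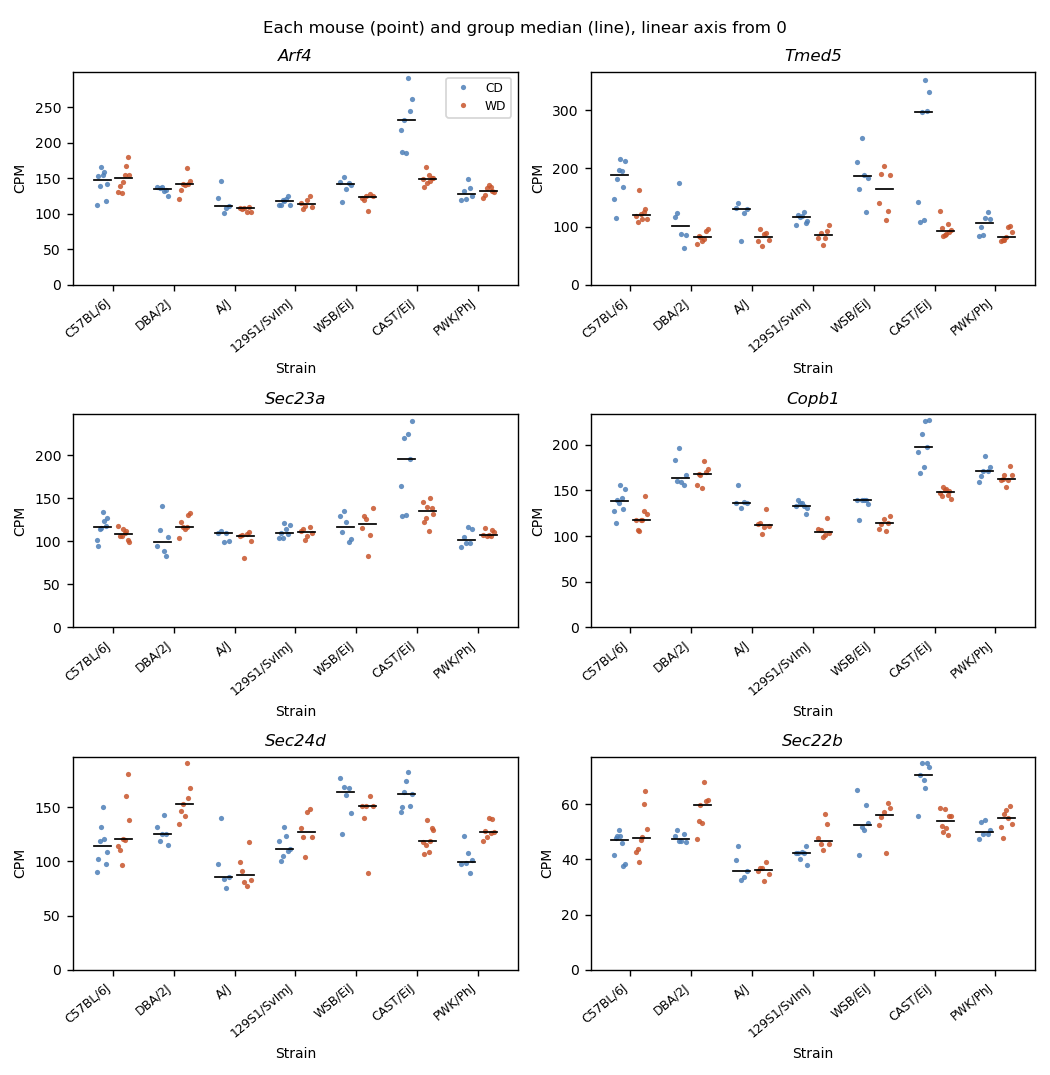
CPM in each mouse (points) by strain and diet for Arf4, Tmed5, Sec23a, Copb1, Sec24d and Sec22b, on linear axes from 0, with lines at the group medians. The median of CAST/EiJ on CD is the highest of all groups for Arf4, Tmed5, Sec23a, Copb1 and Sec22b, and its Tmed5 points range from 108.1 to 351.6 CPM.

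The other p24 genes did not pass in CAST/EiJ. Their log2 fold changes were -0.12 for Tmed2 (adjusted p = 0.079), -0.091 for Tmed3 (0.79), -0.14 for Tmed4 (0.14), -0.081 for Tmed7 (0.41), -0.12 for Tmed9 (0.49) and 0.0093 for Tmed10 (0.93). Of the other cargo receptors Mcfd2 fell, from 150, 184.5 and 196 CPM to 133, 142 and 169.8, with a log2 fold change of -0.30 (SE 0.059, adjusted p = 8.5e-05) and 6 of 8 WD mice below all CD mice. Its partner Lman1 had -0.077 (adjusted p = 0.48), Lman2 0.11 (0.17) and Surf4, an export receptor for several secreted proteins, -0.11 (0.1).

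Of the KDEL receptors, which catch ER-resident chaperones in the Golgi for return by COPI, Kdelr2 fell in CAST/EiJ. It had 133, 146 and 158 CPM on CD and 103, 111 and 132.5 on WD, with no overlap and a log2 fold change of -0.36 (SE 0.075, adjusted p = 0.00021). Kdelr1 had -0.068 (adjusted p = 0.32) and Kdelr3 0.28 (0.69). The SNARE Stx5a, which drives the fusion of ER vesicles with the Golgi, went from 61.4, 73.3 and 93.2 CPM to 50, 54.9 and 61.7, with 7 of 8 WD mice below all CD mice and a log2 fold change of -0.41 (SE 0.098, adjusted p = 0.0011). Its partner Sec22b had 55.6, 70.4 and 75.0 CPM on CD and 48.9, 53.9 and 58.4 on WD, a log2 fold change of -0.36 (SE 0.079, adjusted p = 0.00043) with 4 of 8 WD mice below all CD mice. The other partners, Bet1 and Gosr2, had -0.085 (adjusted p = 0.53) and -0.11 (0.19). Both tethers fell, Uso1 (p115) at -0.27 (adjusted p = 0.0081) and its Golgi partner Golga2 (GM130) at -0.28 (adjusted p = 3.1e-07).

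Markers of the cell types of the liver were read beside these changes in CAST/EiJ. Of 8 leukocyte markers 1 rose, with a summed level of 48.4 to 74.2 CPM on CD and 56.0 to 127 on WD, the smallest adjusted p of the 6 stellate cell or fibroblast markers was 0.13, for Col3a1 (sums of 234 to 300.6 and 239 to 430.2 CPM), of 5 cholangiocyte markers Spp1 rose (log2 fold change 0.92, adjusted p = 0.025; sums of 22.5 to 34.3 and 34.6 to 62.3 CPM, with no overlap), and of 7 hepatocyte markers 2 fell (110200 to 133400 and 72740 to 94860 CPM). The hepatocyte markers that fell were Alb and Ass1. Of 5 endothelial markers the smallest adjusted p was 0.09, for Lyve1 (sums of 209.8 to 268.8 and 208.5 to 251.7 CPM). No marker was at 0 in any mouse, and the part of these shifts in the members' changes was not tested. The share of reads that did not map lay between 8.93% and 13.9% on CD and between 11.7% and 14.8% on WD in this strain.

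Whether CAST/EiJ differed from the other strains in its response was tested directly, as its diet effect minus the mean diet effect of the other 6 strains. In this comparison 21 members were lower, against 6.91% of all genes, and none higher by limma, at an unadjusted p below 0.05, by edgeR or by DESeq2, against 7.59%. The largest were those of Tmed5 at -0.75 (SE 0.18, adjusted p = 0.0025), Arf4 at -0.58 (SE 0.078, adjusted p = 9.6e-08) and Sec24d at -0.54 (SE 0.11, adjusted p = 0.00047). The mean log2 fold change of the other 6 strains was -0.38 for Tmed5, -0.033 for Arf4 and 0.12 for Sec24d. Copz2, which did not pass in CAST/EiJ alone, differed by -0.51 (adjusted p = 0.002), with a mean of 0.24 elsewhere. Sec22b differed by -0.47 (adjusted p = 5.6e-05), Sec23a by -0.47 (0.0006), Stx5a by -0.36 (0.014) and Sar1a by -0.31 (1.7e-05). Sec24a (-0.30, adjusted p = 0.0499), Sec16a (-0.29, 0.0058), Sec24b (-0.28, 0.014) and Sec31a (-0.27, 0.00078) followed. Copa, Copb1, Copb2, Copg1, Arcn1, Mcfd2, Gosr2, Uso1 and Golga2 were the other members called.

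DBA/2J differed in the opposite direction, with 7 members whose diet effect lay above the mean of the other strains (3.88% of all genes) and none below it by limma, at an unadjusted p below 0.05, or by edgeR and DESeq2 after adjustment (3.89%). That mean includes CAST/EiJ, where most members had a change below 0, so a difference above it is not by itself a rise. The median diet effect of the 43 members in DBA/2J was 0.081, and their median difference from the other strains was 0.17. The widest differences were 0.27 for Uso1 (SE 0.090, adjusted p = 0.049), 0.26 for Copb2 (SE 0.055, 0.0012), 0.24 for Mcfd2 (SE 0.070, 0.021), 0.24 for Gosr2 (SE 0.069, 0.021) and 0.24 for Arcn1 (SE 0.069, 0.021). Of these, Uso1, Mcfd2 and Arcn1 did not rise on WD within any strain. Without WD replicate 5 the number was 3, without WD replicate 6 or 7 it was 4, and without WD replicate 1 it was 14. In PWK/PhJ 5 members lay above the other strains (7.59%) and 2 below (8.7%), and the number in all was 2 without CD replicate 5 and 4 without CD replicate 2 or WD replicate 7. The widest were higher for Kdelr3 (1.06, SE 0.38, adjusted p = 0.044), Sec24d (0.34, SE 0.12, 0.046), Sec31a (0.22, SE 0.064, 0.011) and Copb1 (0.19, SE 0.066, 0.035), and lower for Lman2 (-0.32, SE 0.067, 0.00039). Copb1 did not rise in PWK/PhJ itself, where its estimate was below 0.

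In C57BL/6J (4.69% of all genes in either direction), A/J (0.466%), 129S1/SvImJ (6.28%) and WSB/EiJ (0.947%) limma called no member against the other strains. At an unadjusted p below 0.05 there were 5 higher in C57BL/6J, 1 lower in A/J, 5 higher and 1 lower in 129S1/SvImJ, and 5 lower in WSB/EiJ. edgeR called 1 member in 129S1/SvImJ and none in the other 3 of these strains, and DESeq2 called 2 in C57BL/6J, 1 in 129S1/SvImJ and none in A/J or WSB/EiJ. In C57BL/6J the count was 4 without WD replicate 3 and 1 without any 1 of CD replicates 2, 4, 5 and 7 or WD replicate 1, and in 129S1/SvImJ it was 1 without WD replicate 2 or 3. An F test over all 7 strains called a difference in the diet effect for 24 of the 43 members, against 37.5% of all genes.

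Some members changed in the same direction in several strains, though not always by the same amount. By the F test over the 7 strains the diet effect differed for Copb1 (adjusted p = 0.00038), Copz2 (0.0021) and Tmed5 (0.026). That test called no difference for Copz1 (0.44) or Copg2 (0.4). Copb1 was lower on WD in 5 strains, and its estimate was below 0 in all 7. Besides CAST/EiJ it went from 115, 138 and 156 CPM to 105, 118 and 144 in C57BL/6J (log2 fold change -0.19, SE 0.054, adjusted p = 0.0052), and from 118, 139 and 139.9 to 105, 114 and 122 in WSB/EiJ (-0.25, SE 0.062, 0.0034). In both strains the diets overlapped. In 129S1/SvImJ it had 124, 133 and 139.8 CPM on CD and 98.4, 105 and 119 on WD, with no overlap (-0.33, SE 0.060, adjusted p = 1e-05). In A/J the 5 CD mice had 136.1, 155.4, 130.7, 137 and 136.6 CPM and the WD mice 102, 112 and 129, again with no overlap (-0.30, SE 0.065, adjusted p = 0.0011). DBA/2J and PWK/PhJ, at -0.026 (adjusted p = 0.84) and -0.065 (0.46), did not pass.

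Copz1, the ζ1 subunit, fell in 4 strains. Its log2 fold change was -0.16 in C57BL/6J (adjusted p = 0.0099), -0.17 in 129S1/SvImJ (0.012), -0.17 in WSB/EiJ (0.044) and -0.22 in PWK/PhJ (0.001). The PWK/PhJ groups did not overlap, with 133, 142 and 155 CPM on CD and 113, 122 and 131 on WD (SE of the log2 fold change 0.055). Its paralog Copz2 rose in C57BL/6J, DBA/2J and 129S1/SvImJ. It went from 14.1, 16.5 and 19.2 CPM to 14.8, 21.2 and 26.7 in C57BL/6J (0.27, SE 0.079, adjusted p = 0.0068), from 13.3, 14.9 and 16.5 to 16.9, 17.8 and 20.01 in DBA/2J (0.28, SE 0.092, 0.021), and from 14.4, 15.2 and 17.2 to 18.6, 19.3 and 21.2 in 129S1/SvImJ (0.35, SE 0.090, 0.0018). The diets overlapped in C57BL/6J and not in the other two. The estimates of Copz1 were below 0 and those of Copg2 above 0 in all 7 strains. Copg2 rose in C57BL/6J (0.19, adjusted p = 0.042), CAST/EiJ (given above) and DBA/2J, where it went from 18.0, 22.4 and 24.1 CPM to 23.0, 26.2 and 29.0 (0.27, SE 0.080, adjusted p = 0.012). Its exons share 912 bp with the opposite-strand gene Mest, which rose in C57BL/6J (0.86, adjusted p = 5e-05), and for which the log2 fold change was 0.084 in DBA/2J (0.86) and 0.13 in CAST/EiJ (0.76). With 1 mouse left out, the call was lost for Copz2 in DBA/2J without CD replicate 3 (adjusted p = 0.062), for Copg2 there without CD replicate 2 (0.068) and in C57BL/6J without any 1 of CD replicates 1, 3, 4, 5 and 6 and WD replicates 1, 2, 4, 5 and 6 (0.053 to 0.11), and for Copz1 in WSB/EiJ without any 1 of CD replicates 3, 5 and 6 and WD replicates 2 and 4 (0.059 to 0.11).

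Tmed5 was below 0 in all 7 strains as well, and fell in C57BL/6J in addition to CAST/EiJ, from 115, 189 and 216 CPM to 108, 120.1 and 162 (log2 fold change -0.52, SE 0.17, adjusted p = 0.014). Elsewhere it had -0.54 in A/J (adjusted p = 0.07), -0.43 in 129S1/SvImJ (0.066), -0.32 in DBA/2J (0.22), -0.26 in PWK/PhJ (0.3) and -0.24 in WSB/EiJ (0.52). Mtf2, the overlapping gene, fell in A/J (-0.33, adjusted p = 0.005) and in 129S1/SvImJ (-0.23, 0.019), and had -0.14 in C57BL/6J (0.12). Tmed4 fell in C57BL/6J (-0.19, adjusted p = 0.023) and 129S1/SvImJ (-0.21, 0.02), and Tmed7 in 129S1/SvImJ (-0.19, 0.03). The call of Tmed4 was lost in C57BL/6J without any 1 of CD replicates 4, 5 and 6 and WD replicate 3 (adjusted p of 0.055 to 0.068) and in 129S1/SvImJ without CD replicate 5 or WD replicate 3 (0.063 and 0.06), and that of Tmed7 without any 1 of CD replicates 2, 3 and 5 and WD replicates 3, 4 and 6 (0.052 to 0.11). Exons of Tmed7 share 838 bp with Ticam2 on the same strand, so that reads there cannot be told apart. Ticam2 rose in 129S1/SvImJ (1.05, adjusted p = 0.0058), and its median count over all mice was 14 reads. No strain showed a call for Tmed2, Tmed9 or Tmed10, whose log2 fold changes lay between -0.30 and 0.071.

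Kdelr3, the least abundant KDEL receptor, rose in 3 strains. In PWK/PhJ it had 0.148, 0.317 and 0.362 CPM on CD and 0.493, 0.973 and 1.48 on WD, and in 129S1/SvImJ 0.0632, 0.173 and 0.271 on CD and 0.393, 0.463 and 0.530 on WD. In both strains every WD mouse lay above every CD mouse, and the log2 fold changes were 1.74 (SE 0.35, adjusted p = 4.7e-05) and 1.55 (SE 0.41, adjusted p = 0.0027). In C57BL/6J it went from 0.197, 0.354 and 1.90 CPM to 0.330, 0.935 and 1.95, with overlapping groups (0.91, SE 0.27, adjusted p = 0.0081), and its change in mean log2 CPM was 1.09 in cohort 1 and 0.16 in cohort 2. Markers of other cell types also changed in these strains. Of 6 stellate cell or fibroblast markers 4 rose in C57BL/6J, 3 in 129S1/SvImJ and 4 in PWK/PhJ. Their summed level in PWK/PhJ was 118 to 170.3 CPM on CD and 245 to 549.9 on WD, that of 129S1/SvImJ was 209 to 249 and 289 to 362, and that of C57BL/6J was 262 to 820 and 275 to 997. Of 8 leukocyte markers 6, 7 and 6, in the same order, rose in these 3 strains. Their sum in PWK/PhJ was 16.2 to 64.9 CPM on CD and 88.8 to 169.5 on WD, while 129S1/SvImJ had 57.2 to 119 and 157 to 244, and C57BL/6J had 118 to 417 and 209.9 to 542. Of 5 cholangiocyte markers 4 rose in PWK/PhJ, and 1 each in C57BL/6J and 129S1/SvImJ. Their sum in PWK/PhJ lay between 64.5 and 140.3 CPM on CD and between 159 and 525 on WD, while 129S1/SvImJ had 21.3 to 43.1 and 59.7 to 102, and C57BL/6J had 43.3 to 435 and 47.9 to 406. Of 5 endothelial markers 2 rose and 2 fell in C57BL/6J, 2 rose in 129S1/SvImJ, and 1 rose and 1 fell in PWK/PhJ. Kdelr3 did not pass in A/J, where 2 stellate cell or fibroblast markers rose, or in WSB/EiJ, where 2 leukocyte markers rose. It did not pass in CAST/EiJ either, where 1 leukocyte and 1 cholangiocyte marker rose. The part of these markers in the rise of Kdelr3 was not tested. In A/J, DBA/2J, WSB/EiJ and CAST/EiJ the log2 fold change was 0.79 (adjusted p = 0.29), 0.17 (0.82), 0.38 (0.67) and 0.28 (0.69). Exons of Kdelr3 share 4 of their 1411 bp with Ddx17 on the opposite strand, for which the log2 fold change was -0.17 in PWK/PhJ (adjusted p = 0.049), -0.21 in 129S1/SvImJ (0.012) and -0.040 in C57BL/6J (0.68).

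**Figure D4:**
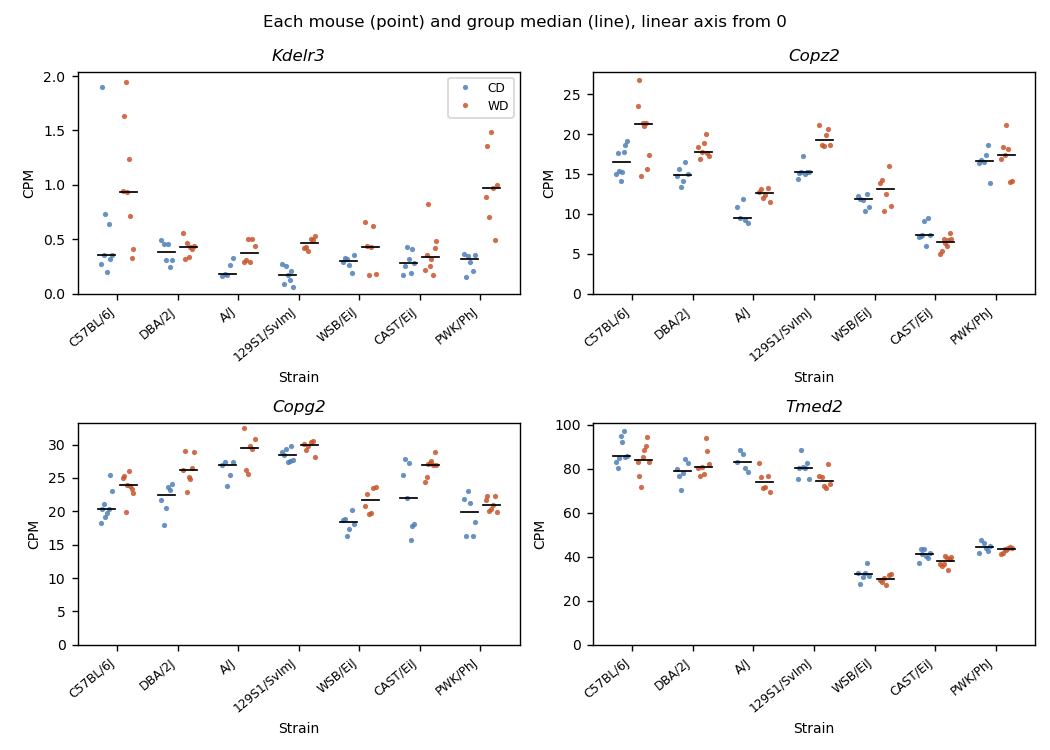
CPM in each mouse (points) by strain and diet for Kdelr3, Copz2, Copg2 and Tmed2, on linear axes from 0, with lines at the group medians. Kdelr3 on WD lies above CD without overlap in PWK/PhJ and 129S1/SvImJ, the medians of Copz2 are lowest in CAST/EiJ, and Tmed2 lies between 27.4 and 47.5 CPM in WSB/EiJ, CAST/EiJ and PWK/PhJ and between 69.4 and 97.4 in the other 4 strains.

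DBA/2J showed the most increases. Sec23b went from 36.95, 67.4 and 77.2 CPM on CD to 68.7, 81.4 and 114 on WD (log2 fold change 0.51, SE 0.17, adjusted p = 0.028), with 5 of 7 WD mice above all CD mice. The p24 gene Tmed3 went from 11.6, 17.3 and 20.1 CPM to 19.4, 20.4 and 29.7 (0.50, SE 0.17, adjusted p = 0.03), and 4 of 7 WD mice lay above all CD mice. Tmed3 also rose in 129S1/SvImJ, from 8.77, 10.4 and 12.2 CPM to 12.5, 14.7 and 23.2 with no overlap (0.65, SE 0.19, adjusted p = 0.0048). The SNARE Gosr2 rose in DBA/2J from 84.9, 92.6 and 98.95 CPM to 100.1, 113 and 126, with no overlap (0.28, SE 0.064, adjusted p = 0.00059). Copb2 (0.16, adjusted p = 0.019), Lman2 (0.25, 0.0023) and Sec22b (0.26, 0.019) were the other members that rose in this strain. Without CD replicate 2 or without WD replicate 5, 4 members were called in DBA/2J in place of 8. The call of Sec23b was lost without any 1 of CD replicates 2 and 3 and WD replicates 5 and 6 (adjusted p of 0.053 to 0.14), that of Tmed3 in DBA/2J without any 1 of CD replicates 2, 3 and 6 and WD replicates 3, 5 and 6 (0.056 to 0.11), that of Copb2 without CD replicate 2 (0.064) or WD replicate 5 (0.069), and that of Sec22b without WD replicate 5 (0.063).

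The cargo receptor Lman2 changed direction between strains. It rose in C57BL/6J, from 175, 194 and 230.3 CPM to 162, 238 and 280.1 (log2 fold change 0.23, SE 0.056, adjusted p = 0.00096), as in DBA/2J (given above), and it fell in PWK/PhJ, from 189, 200.1 and 207 CPM to 156, 177 and 191 (-0.19, adjusted p = 0.014). Sec24d rose in PWK/PhJ, from 88.97, 99.5 and 123 CPM to 119, 127 and 140.2 (0.33, SE 0.11, adjusted p = 0.018), and fell in CAST/EiJ. Sec31a and Gosr2 also rose in PWK/PhJ (0.16, adjusted p = 0.031, and 0.18, 0.02). Cope, the ε subunit of the coatomer, fell there from 72.5, 75.2 and 81.3 CPM to 60.7, 67.2 and 69.4 with no overlap (-0.22, SE 0.066, adjusted p = 0.0075). Kdelr2 fell from 97.2, 109 and 118 CPM to 78.3, 92.9 and 106 with overlap (-0.22, SE 0.080, adjusted p = 0.028), and Kdelr1 fell as well (-0.21, 0.00048). Without CD replicate 5, 5 members were called in PWK/PhJ in place of 9, and the calls of Sec24d (adjusted p = 0.061), Kdelr2 (0.08), Sec31a (0.087) and Gosr2 (0.13) were lost. Kdelr2 was also lost without CD replicate 2 or 4 or WD replicate 2 (0.051 to 0.088), and Sec31a without any 1 of CD replicates 1, 3 and 6 and WD replicate 5 (0.055 to 0.064).

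In 129S1/SvImJ, Lman1, the lectin ERGIC-53, fell from 246, 261 and 275 CPM to 203, 217 and 252 (log2 fold change -0.25, SE 0.071, adjusted p = 0.0051), with 5 of 6 WD mice below all CD mice. Copa (-0.18, adjusted p = 0.008) and Arcn1 (-0.20, 0.013) fell there too. Mcfd2 fell in A/J, where the 5 CD mice had 222.7, 261.7, 209.1, 215.6 and 218.1 CPM and the WD mice 178, 189.6 and 196 (-0.25, SE 0.070, adjusted p = 0.013), with no overlap. Without CD replicate 2, A/J had 1 call in place of 2, with Mcfd2 lost (adjusted p = 0.094), and without CD replicate 3 it had 5. In WSB/EiJ Kdelr2 fell from 105, 130.0 and 140.5 CPM to 97.3, 106 and 115 (-0.27, SE 0.083, adjusted p = 0.025), and Mcfd2 from 166, 222 and 266 to 171, 187 and 205.5 (-0.21, SE 0.066, 0.03). Copa fell there from 199.3, 233 and 262.5 CPM to 174, 207 and 223.5 (-0.19, SE 0.057, adjusted p = 0.023) and Sec31a from 213, 243 and 264 to 186, 212 and 232 (-0.18, SE 0.062, 0.049). The diets overlapped for all 4 genes in this strain. The count in WSB/EiJ was 2 without CD replicate 3 or 5, 3 without WD replicate 2 or 4, and 13 without CD replicate 2. Calls there were lost for Kdelr2 without CD replicate 1 or 3 or WD replicate 2 (adjusted p of 0.056 to 0.059), for Mcfd2 without any 1 of CD replicates 3, 5 and 6 and WD replicates 2 and 3 (0.052 to 0.14), for Copa without CD replicate 5 (0.069) or WD replicate 4 (0.081), and for Sec31a without any 1 of CD replicates 1, 3, 4 and 5 and WD replicates 3, 4 and 6 (0.06 to 0.13). Golga2 fell in C57BL/6J (-0.14, adjusted p = 0.0058).

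Of the 66 calls of a member in a strain, all 66 had the same sign in every cohort of their strain. The calls were made on the mice of these same cohorts, so the shared sign is a description and not a separate check. Cohort 1 of CAST/EiJ held 1 CD mouse. The sizes were less even, and 20 of the 154 changes within a cohort lay more than 1 SD between mice away from the log2 fold change over all cohorts. The other members with no call in any strain were Sar1b, Sec24c, Sec13, Sec16b, Surf4 and Bet1. Their log2 fold changes lay between -0.28 and 0.14 over the 7 strains.

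Levels on CD were compared between strains, each against the mean of the other 6, using the same CD mice as above. Strains were spread unevenly over the 7 cohorts, and the fit held no term for cohort. Cohorts 6 and 7 held WSB/EiJ mice alone, so that strain and cohort cannot be told apart there. The other strains shared cohorts only in part, and the part of cohort in these differences was not tested. In CAST/EiJ 30 members were higher (32.4% of all genes) and 6 lower (31.5%). PWK/PhJ had 4 higher (30.2%) and 24 lower (28.4%), A/J 3 higher (20.5%) and 21 lower (16.2%), C57BL/6J 8 higher (29.5%) and 16 lower (28.4%), and 129S1/SvImJ 7 higher (23.6%) and 12 lower (20.6%). WSB/EiJ had 16 higher (25.4%) and 4 lower (23.8%), and DBA/2J 11 higher (22.9%) and 6 lower (19.4%). An F test over the 7 strains called 42 of 43 members, where 93.7% of all genes were called, so that the share is near the background, and Sec23b was the exception (adjusted p = 0.053).

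The differences of CAST/EiJ were led by Copz2, which stood at 6.01, 7.29 and 9.44 CPM on CD, against a mean of 14.2 in the other strains (log2 difference -0.87, SE 0.087, adjusted p = 6e-15). Arf4 had a mean of 231 CPM against 130.0 (0.82, SE 0.057, 5.6e-23) and Sec23a 187 against 109.9 (0.73, SE 0.074, 8.4e-15). The CD level and the diet effect of a strain share the CD mice; side by side, the log2 difference on CD and the log2 fold change on WD were 0.82 and -0.62 for Arf4, 0.73 and -0.45 for Sec23a, and 0.70 and -1.14 for Tmed5. On WD the median of the 43 members in CAST/EiJ, taken against the other 6 strains, was 0.0985 in log2 CPM, where it was 0.34 on CD. This change in the median was not tested.

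Tmed2, a p24 protein found in both kinds of vesicle, split the strains most firmly on CD. It had 27.8, 32.0 and 37.1 CPM in WSB/EiJ, 37.0, 41.4 and 43.7 in CAST/EiJ, and 41.7, 44.5 and 47.5 in PWK/PhJ. The other strains did not overlap with these, with 80.6, 85.6 and 97.4 in C57BL/6J, 75.5, 80.5 and 88.6 in 129S1/SvImJ, 70.6, 79.1 and 84.6 in DBA/2J, and 83.0, 88.6, 86.6, 80.4 and 78.8 in the 5 A/J mice. Against the mean of the other 6 strains the log2 difference was -1.05 in WSB/EiJ (SE 0.043, adjusted p = 1.8e-37), 0.65 in C57BL/6J (SE 0.037, 1.4e-27), 0.56 in A/J (SE 0.045, 7.2e-19) and 0.47 in DBA/2J (SE 0.042, 1.2e-16). Reads of the 3 strains with low Tmed2, which are wild-derived, had a median unmapped share on CD of 4.14%, 10.2% and 3.71%, against 2.34% to 6.54% in the others, and the part of mapping in this difference was not tested.

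Gosr2 stood at 90.5, 94.3 and 102 CPM on CD in 129S1/SvImJ (log2 difference 0.52, SE 0.047, adjusted p = 2.9e-16) and at 84.9, 92.6 and 98.95 in DBA/2J (0.47, SE 0.050, 2.5e-13), and at 41.8, 50.6 and 53.6 in PWK/PhJ (-0.57, SE 0.050, 1.1e-17). Sec24b in PWK/PhJ had a mean of 18.6 CPM against 28.2 in the other strains (-0.60, SE 0.065, adjusted p = 2e-13). Tmed5 on CD was lower than in the other strains in PWK/PhJ (-0.50, SE 0.14, adjusted p = 0.0017) and DBA/2J (-0.49, SE 0.14, 0.0031) and higher in WSB/EiJ (0.48, SE 0.14, 0.004). WSB/EiJ also had more Tmed3, with a mean of 24.1 CPM against 14.6 (0.75, SE 0.13, 2.6e-06), and 129S1/SvImJ had less, 10.6 against 16.9 (-0.62, SE 0.15, 0.00028). Sec22b and Sec24d were lower in A/J (-0.45, SE 0.073, 4.3e-07, and -0.43, SE 0.095, 0.00014). C57BL/6J had more Copz2 (0.43, SE 0.064, adjusted p = 1.3e-08), and its Kdelr3 was higher (0.87, SE 0.25, 0.0019), while that of 129S1/SvImJ was lower (-0.98, SE 0.35, 0.017).

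**Figure D5:**
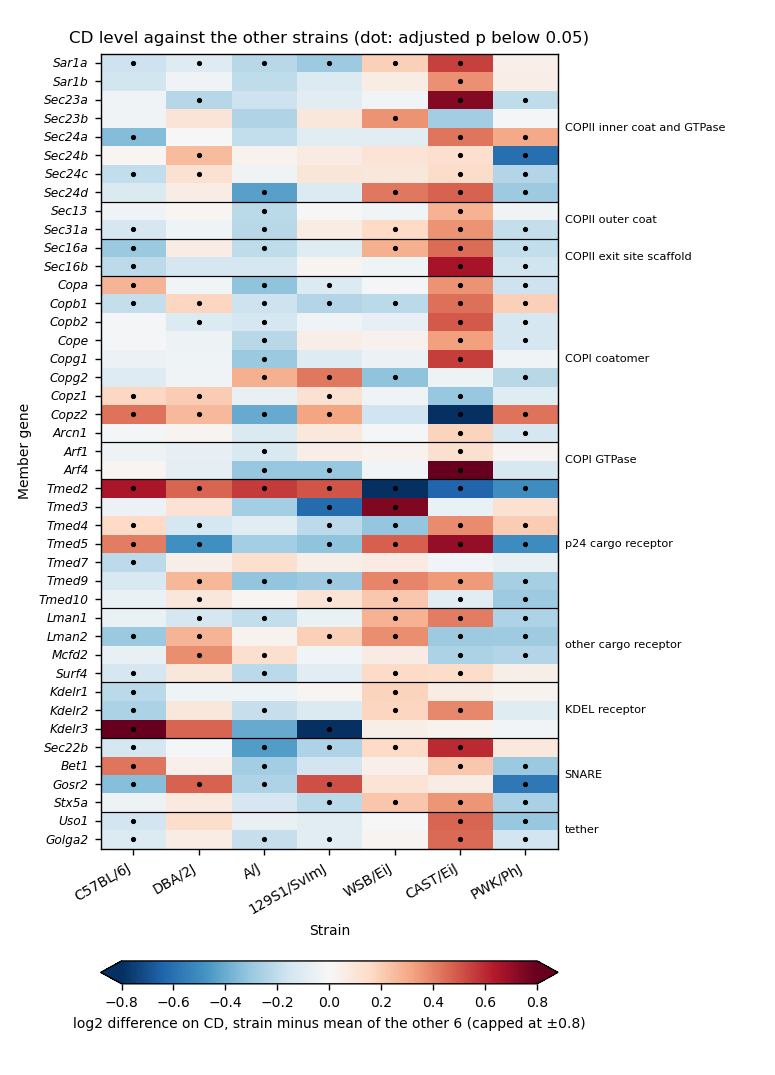
Log2 difference of each strain's CD level from the mean of the other 6 strains for the 43 members (rows, by role), with red for higher and blue for lower, colours capped at ±0.8, and a dot where the limma-voom adjusted p was below 0.05. The CAST/EiJ column has 30 members higher and 6 lower, and Tmed2 is low in WSB/EiJ, CAST/EiJ and PWK/PhJ.

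Genes that regulate the 2 coats or act beside them were described from lists in CAST/EiJ, where 9.77% of all genes rose on WD and 9.73% fell. Of 10 COPII regulators 3 fell, namely the SAR1 exchange factor Preb (log2 fold change -0.25, adjusted p = 0.012), Klhl12 (-0.21, 0.0094) and the kinase Csnk1d (-0.20, 0.0086). Of 9 COPI regulators 2 fell, Arfgap3 (-0.56, 0.016) and Arfgap1 (-0.27, 0.0045), both of which switch ARF off, and the GTPase Arf5 rose (0.36, 8.4e-05). Of 33 tethers and RAB genes 6 fell and 2 rose, led by Golga5 (-0.39, 3.1e-06), Rab1a, the RAB of the step from ER to Golgi (-0.39, 2.4e-06), Zw10 (-0.31, 0.00034) and Gorasp2 (-0.23, 0.002), with Gorasp1 (0.30, 0.015) and Trappc1 (0.19, 0.013) higher. Of 13 further SNARE genes 2 fell, Napa (-0.29, 1.4e-05) and Stx18 (-0.19, 0.035), and of 13 further cargo receptors tested 1 fell, Yipf5 (-0.26, 0.0063). Among the genes named in this paragraph the diets overlapped for all but Stx18. For Csnk1d no WD mouse lay below all CD mice, with 55.63 to 93.57 CPM on CD and 58.4 to 68.86 on WD.

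Of 24 ER chaperones and translocon genes 1 fell in CAST/EiJ, Sec61a1 (-0.27, adjusted p = 0.022), and none rose by limma-voom. Of 8 regulators of the ER stress response and of secretory genes, 4 fell and 1 rose. Those that fell were Atf6 (-0.44, 5.5e-05), Creb3l3, a factor of hepatocytes (-0.37, 0.037), the kinase Eif2ak3, also called PERK (-0.37, 0.037), and Creb3 (-0.35, 0.0001), and Xbp1 rose (0.46, 0.04). The diets overlapped for all of these. For Creb3l3 no WD mouse lay below all CD mice, with 442.3 to 821.9 CPM on CD and 456.7 to 524.4 on WD. The number of WD mice below all CD mice was 4 for Atf6, 7 for Eif2ak3 and 2 for Creb3. Xbp1 had 145.9, 204.8 and 336 CPM on CD and 220.3, 306.5 and 336 on WD. CD replicates 1 to 7 had 274.2, 291.4, 204.8, 336, 145.9, 164.8 and 170.1 CPM of Xbp1 and 207.7, 213, 299.7, 214.8, 292.6, 307.6 and 319.3 CPM of Rab1a, so that replicates 1, 2 and 4 were the highest for Xbp1 and the lowest for Rab1a. Replicates 1, 2 and 4 were also the lowest for Golga5, Napa, Creb3l3 and Creb3 and the highest for Arf5 and Trappc1. They were not set apart in this way for Atf6, Csnk1d, Zw10 or Gorasp1, among others. Those replicates had 548.7, 442.3 and 450.6 CPM of Creb3l3, and the other CD replicates had 691.9 to 821.9. All these genes were picked for this description after their values were seen.

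Promoters of the members are shown for the sites that the ER stress factors XBP1 and ATF6 are known to bind, since members of the pathway are known targets of these factors. The RefSeq promoter table for GRCm38.p6 holds 300 bases for each start, 250 before and 50 after it, and 38 of the 43 members had 44 promoters in it. The letters TGACGTGG, searched on both strands, were found in a promoter of 8 members (Arf1, Copb1, Copb2, Kdelr3, Sec16b, Sec23a, Sec24d and Stx5a), against 0.676% of the 32851 promoters in the table. Members are counted here by gene, with a match in any of its promoters, and the shares of the table by promoter, so the units differ. The shorter core CCACGT lies wholly within the longer motif read on the other strand. It was found for 22 members, which include all 8 with TGACGTGG, against 8.31% of all promoters. The ER stress element ERSE (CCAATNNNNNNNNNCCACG) and ERSE-II (ATTGGNCCACG) were found for none of the members, against 0.119% and 0.0365% of all promoters. The cAMP response element TGACGTCA was found for Cope and Gosr2, against 1.79%. Of the 8 members with TGACGTGG, Arf1, Copb1, Copb2, Sec23a, Sec24d and Stx5a fell in CAST/EiJ and Kdelr3 and Sec16b did not pass there. Of all 43 members 21 fell in that strain, with or without the site. Whether the fall goes with the site was not tested. A match of letters is a description and does not show that a factor binds. Arcn1, Kdelr2, Lman1, Tmed2 and Tmed7 had no promoter in the table.

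The promoters of 4 genes that fell in CAST/EiJ and hold the 8-letter site are printed first, then the 2 with the site that did not pass there, and last that of Arf4, which fell and holds the core alone. They lie in GRCm38 at chr12:59011968-59012267 on the minus strand (Sec23a), chr3:123267246-123267545 on the plus strand (Sec24d), chr7:114254631-114254930 on the minus strand (Copb1), chr19:8741174-8741473 on the plus strand (Stx5a), chr15:79516158-79516457 on the plus strand (Kdelr3), chr1:157506546-157506845 on the plus strand (Sec16b) and chr14:26637884-26638183 on the plus strand (Arf4). Each is written from 5′ to 3′ on the strand of the gene, from the C57BL/6J reference, with matches to the motifs above in capitals on either strand. Variants that the other strains carry in these promoters were not analysed here.
Sec23a: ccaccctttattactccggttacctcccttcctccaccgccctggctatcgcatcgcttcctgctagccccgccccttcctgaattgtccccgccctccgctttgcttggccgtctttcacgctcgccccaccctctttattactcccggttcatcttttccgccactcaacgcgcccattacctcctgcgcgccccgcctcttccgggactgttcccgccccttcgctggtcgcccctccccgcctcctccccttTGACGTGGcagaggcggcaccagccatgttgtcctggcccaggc
Sec24d: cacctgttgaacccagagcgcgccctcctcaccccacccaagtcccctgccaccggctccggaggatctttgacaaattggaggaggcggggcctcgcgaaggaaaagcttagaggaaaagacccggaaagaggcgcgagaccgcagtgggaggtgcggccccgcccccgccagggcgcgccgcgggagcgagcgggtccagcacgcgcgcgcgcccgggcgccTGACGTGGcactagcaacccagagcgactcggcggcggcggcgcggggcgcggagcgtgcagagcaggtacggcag
Copb1: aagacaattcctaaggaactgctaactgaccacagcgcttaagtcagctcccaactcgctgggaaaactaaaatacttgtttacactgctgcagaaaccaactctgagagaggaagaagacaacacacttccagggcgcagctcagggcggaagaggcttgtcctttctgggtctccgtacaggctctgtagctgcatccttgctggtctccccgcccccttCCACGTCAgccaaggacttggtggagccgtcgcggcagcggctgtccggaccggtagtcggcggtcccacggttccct
Stx5a: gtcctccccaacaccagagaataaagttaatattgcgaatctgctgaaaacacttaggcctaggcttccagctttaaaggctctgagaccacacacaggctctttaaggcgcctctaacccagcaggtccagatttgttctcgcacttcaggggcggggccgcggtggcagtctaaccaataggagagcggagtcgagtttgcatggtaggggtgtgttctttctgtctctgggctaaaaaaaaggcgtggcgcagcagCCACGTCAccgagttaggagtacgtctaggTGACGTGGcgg
Kdelr3: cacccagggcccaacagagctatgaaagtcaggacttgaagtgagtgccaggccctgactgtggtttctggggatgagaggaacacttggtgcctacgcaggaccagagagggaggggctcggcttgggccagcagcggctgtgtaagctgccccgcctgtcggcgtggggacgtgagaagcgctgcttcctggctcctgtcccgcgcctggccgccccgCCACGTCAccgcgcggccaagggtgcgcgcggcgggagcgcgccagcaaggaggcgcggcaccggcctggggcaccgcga
Sec16b: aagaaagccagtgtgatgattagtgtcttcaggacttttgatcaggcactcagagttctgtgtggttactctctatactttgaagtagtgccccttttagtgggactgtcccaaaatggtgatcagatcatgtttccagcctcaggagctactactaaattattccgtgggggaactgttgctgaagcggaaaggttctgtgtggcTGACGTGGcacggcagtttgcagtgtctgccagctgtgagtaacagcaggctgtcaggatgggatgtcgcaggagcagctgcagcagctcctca
Arf4: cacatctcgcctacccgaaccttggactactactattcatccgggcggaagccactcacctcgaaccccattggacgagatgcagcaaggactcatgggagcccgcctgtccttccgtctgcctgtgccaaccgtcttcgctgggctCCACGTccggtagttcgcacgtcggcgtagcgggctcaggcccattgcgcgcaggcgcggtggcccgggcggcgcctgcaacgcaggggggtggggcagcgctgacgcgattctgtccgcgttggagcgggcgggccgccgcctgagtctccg

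With the start counted as 1 and the base before it as -1, the first base of the TGACGTGG match lay at -26 in Sec24d, at -28 in Copb1, at -30 in Kdelr3 and at -44 in Sec16b. In Sec23a it lay at 7, and the promoter of Stx5a held it at 10 and at 40. In Arf4 the core alone lay at -103.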

How the data were processed

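Liver RNA of 93 male mice was sequenced, and the authors deposited raw counts of reads per gene and mouse, made with STAR 2.7.1a (submitters' processing notes) on the C57BL/6J genome GRCm38/mm10, with no normalization. The annotation release and the strand setting of the counting are not given in the sources used here. The 4 summary lines of the table were kept out of the tests, and every sample column was used. The 43 members and the other lists were chosen with earlier results of these data known. Positions, exon lengths and overlaps came from GENCODE vM21 (GRCm38), and promoters from RefSeq (GRCm38.p6).

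The software was limma 3.58.1 and edgeR 4.0.16 under R 4.3.3. Genes passing filterByExpr at a minimum count of 10 were scaled by TMM, and voom was fitted once with 14 group means, so that all groups shared 1 estimate of the spread. Mice are separate animals. Contrasts were WD against CD within a strain, that effect minus the mean of the other 6 strains, CD levels against the mean of the other 6 strains, and F tests over strains. P-values were adjusted by Benjamini-Hochberg over all 19110 genes in each contrast, and the pipeline was tested on simulated data. Changes within cohorts are differences of mean log2 CPM with a prior count of 2. Pairs of mice in a group differed by at least 17.56 in chi-square per degree of freedom, so none was counted as a repeat.

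The alternatives tried were DESeq2 1.42.0 (Wald test), quasi-likelihood fits in edgeR, scaling by upper quartile or RLE, no filter or a filter of 10 counts in every mouse, RNA integrity number or cohort as a covariate, sample quality weights, a fit for each strain alone, and each mouse left out. Depth was 40020424 to 49894856 reads on genes, and counting error adds to the spread for Kdelr3. In each strain the called members with the widest change were described in full (up to 5, and 12 in CAST/EiJ), with up to 3 for CD levels and up to 6 called genes for each other list in CAST/EiJ. 1 gene of the list of COPI regulators is not reported here, and its counts leave that gene out.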

Additional observations from a re-analysis of the deposited data

Results flagged for a closer look

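Of 78 groups of a described gene tested for a mouse far from the rest, 8 held one by Dixon's test, where chance gives about 1 in 20. Replicate 2 of A/J on CD was the highest of its group for both Copb1 (155.4 CPM, next 137) and Mcfd2 (261.7, next 222.7), and replicate 2 of WSB/EiJ on CD was the lowest for Copb1 (117.8, next 135.1). In C57BL/6J, CD replicate 2 stood high for Kdelr3 (1.899 CPM, next 0.7362) and WD replicate 3 for Tmed5 (162.2, next 130.6). In CAST/EiJ on WD, replicate 1 stood high for Tmed5 (126.3 CPM, next 104) and replicate 3 for Kdelr2 (132.5, next 113.8). Copz2 was high in replicate 4 of 129S1/SvImJ on CD (17.24 CPM, next 15.28).

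The rest are diet effects that limma-voom set apart from those of the other strains. In CAST/EiJ these were, on the log2 scale, Tmed5 (-0.7536), Arf4 (-0.5825), Sec24d (-0.5394), Copz2 (-0.5087), Sec22b (-0.4714), Sec23a (-0.4661), Stx5a (-0.3629), Sar1a (-0.3143), Sec24a (-0.301), Sec16a (-0.2877), Sec24b (-0.2763) and Sec31a (-0.2745), all lower. In DBA/2J they were higher for Uso1 (0.2688), Copb2 (0.258), Mcfd2 (0.241), Gosr2 (0.2378) and Arcn1 (0.2372). In PWK/PhJ they were higher for Kdelr3 (1.0638), Sec24d (0.3351), Sec31a (0.2218) and Copb1 (0.1896) and lower for Lman2 (-0.3152).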

How the results depend on the processing

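No paired analysis was possible because the labels give no replicate numbers that tie mice of different groups. No result reversed under any alternative. In CAST/EiJ the number of members called on WD was between 20 and 25 under the 10 other settings and between 21 and 24 with each mouse left out, and the number that differed from the other strains was between 16 and 23 under 9 settings and between 14 and 21 with each mouse left out. The leave-one-out values for this difference were chosen after seeing the data. With each mouse left out, the number called on WD was 7 to 9 in C57BL/6J, 4 to 9 in DBA/2J, 1 to 5 in A/J, 8 to 11 in 129S1/SvImJ, 2 to 13 in WSB/EiJ and 5 to 10 in PWK/PhJ. The number that differed from the other strains was then 0 to 4 in C57BL/6J, 3 to 14 in DBA/2J, 0 in A/J, 0 to 1 in 129S1/SvImJ, 0 in WSB/EiJ and 2 to 7 in PWK/PhJ.

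Counts on WD that moved by over 1.5 times with a separate fit for each strain were 2 for C57BL/6J, 7 for A/J and 2 for WSB/EiJ. Others were 6 with cohort and 14 with sample quality weights in A/J, 6 with upper-quartile scaling in 129S1/SvImJ, and 1 in WSB/EiJ with genes of any count. For the difference from the other strains, DESeq2 called 2 and the cohort fit 3 in C57BL/6J, the cohort fit 11 and quality weights 16 in DBA/2J, and genes of any count 4 in PWK/PhJ. In 129S1/SvImJ edgeR, DESeq2, upper-quartile scaling, at least 10 counts in every mouse, cohort and RNA integrity number called 1 each, and quality weights 2. The cause was not tested. The counts on CD and of both F tests stayed within 1.5 times.

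Of the 66 calls of a member in a strain, 66 held with DESeq2, 63 with edgeR, 58 with upper-quartile scaling, 57 with genes of any count and 51 with separate fits, all with the same sign. Kdelr3 had 3 to 121 reads per mouse, which limits its precision.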
